A study of Mus musculus with 6 samples.

Results

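The genes described here form a group labelled interstitial collagens and small matrix proteins. Not all of them encode parts of the fibrous matrix between and around the testis cords. They were taken by name: every gene whose symbol is Col, a number, a and a number, together with Dcn, Lum, Ogn, Dpt, Bgn, Fmod, Postn, Fn1, Sparc, Eln, Fbn1, Fbn2, Tnc and Lox. The basement membrane chains Col4a1 to Col4a6 and Col18a1 were left out, and so was Col9a3, a collagen IX chain. This gave 50 of the 22320 genes in the table, 36 collagen chains and 14 other matrix genes. The chains include 4 transmembrane collagens, Col13a1, Col17a1, Col23a1 and Col25a1, and the cartilage collagen Col2a1. All 50 are called matrix genes below. Messenger RNA had been sequenced from whole testes at postnatal day 1.5, in 3 pools of Arid4bSCKO testes and 3 pools of Control testes, with 4 testes per pool. Arid4bSCKO mice had the genotype Arid4b-/Flox; Amh-cre, that is, Arid4b was carried as a null and a floxed allele, and the Amh promoter drove Cre recombinase in Sertoli cells. Control mice were Arid4b+/Flox; Amh-cre and so carried the same floxed allele and the same Cre with a wild-type allele. Both groups were hybrids of C57BL6/J and 129/SvEv. Cells in which this Cre is not active, such as the interstitial fibroblasts that make much of the matrix, thus also differed between the groups, by the null allele.

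Fibrillar collagens are made as procollagen chains that are hydroxylated, folded into triple helices with the help of chaperones, trimmed outside the cell and joined by lysyl oxidases into fibrils. Fibril-associated collagens and small leucine-rich proteoglycans sit on the fibril surface and set its width and spacing, while fibrillins and elastin form the elastic fibres. In the newborn testis, this matrix lies in the interstitium and in the sheath of peritubular myoid cells around the cords.

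The values are the authors' deposited means per group of log2(normalized count + 1), called levels below, and their comparison of the groups, with no value per pool. Whether the pools of the groups overlap, and how many pools show a direction, were therefore not analysed here. A difference is the Arid4bSCKO level less the Control level in log2 units, and its 95% interval follows from the deposited p-value and the residual degrees of freedom. Depth, read from the worth of a single read, was about 17.6 M reads per library in Arid4bSCKO and 18.6 M in Control (M, mega). Arid4b itself stood at 35.1% of its Control level, with authors' deposited means of 8.68 in Arid4bSCKO and 10.19 in Control. Its FDR in the authors' deposited table was 0.0535, so the targeted gene itself was not below 0.05. As a check of the tissue, all 8 Sertoli, 5 germ and 5 Leydig cell genes looked up had log2 levels above 8 in both groups. In bulk tissue, fewer cells of a type and less RNA per cell cannot be told apart.

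In the authors' deposited table, 0 of the 50 genes had an FDR below 0.05, where 58 of 22320 genes did, or 0.26% (0.139% higher and 0.121% lower). By the unadjusted p of the authors' deposited table, 9 of the 50 were below 0.05, 4 higher and 5 lower in Arid4bSCKO, which is 18% of them. The same p was below 0.05 for 20.9% of all genes (9.86% higher and 11.1% lower). A moderated limma test, in which each gene's variance is drawn towards that of genes with a like level, called 6 of the 50 at a Benjamini-Hochberg adjusted p of 0.05, or 12%. Over all 19095 genes with a level of at least 1 it called 13.8%, 7.37% higher and 6.46% lower. The share of matrix genes called was thus close to that of all genes. In what follows, "rose" and "fell" refer to this moderated test.

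The 4 genes that rose were Sparc, Dpt, Lum and Col14a1, and the 2 that fell were Col25a1 and Col23a1. All 3 called genes outside the collagens thus lay above Control, and 2 of the 3 called collagens below it. The median difference of the 50 genes was 0.07, with 30 positive and 20 negative, against a median of -0.04 and 45.8% positive over all genes tested. By the ratio of group medians in the authors' deposited table, 24 were positive and 26 negative, with a median of -0.01. That balance was close to the one over all genes tested, where the ratio was positive for 9041 and negative for 10049. Of the 6, 0 passed in a plain limma fit with neither a variance trend nor robust weights, where their adjusted p-values ran from 0.051 for Col25a1 to 0.168 for Lum. That fit called 1.24% of all genes, 0.859% higher and 0.382% lower. The members called were 6 without a minimum level (6.16% of all genes higher and 5.25% lower) and 7 with at least 5 normalized counts (8.53% and 7.54%). They were 5 with a trend over level removed (7.86% and 5.96%) and 6 after centring on the median of all genes (8.57% and 5.18%).

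**Figure D1:**
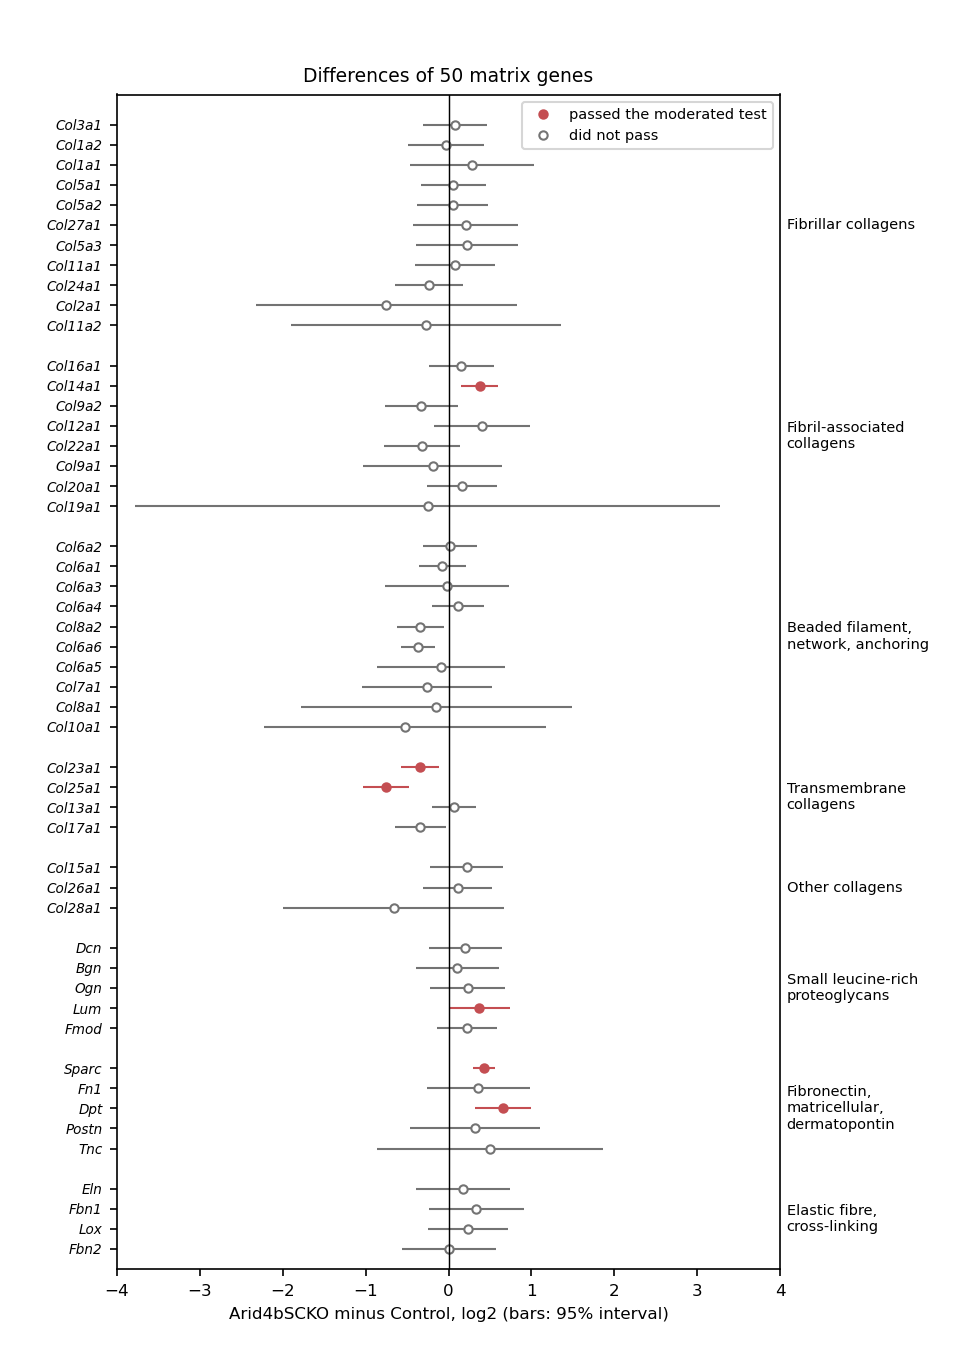
Differences of the 50 matrix genes between Arid4bSCKO and Control testes in log2 units (horizontal axis), grouped by role and ordered by level within a role. Points are Arid4bSCKO minus Control, bars are 95% intervals, and filled red points passed the moderated limma test. The 6 filled points are Col14a1, Lum, Sparc and Dpt to the right of 0 and Col23a1 and Col25a1 to the left.

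The promoters of the called genes are shown because these are the genes that moved in opposite directions. RefSeq promoters (GRCm38.p6) were at hand for 37 of the 50 genes and, of the 6 called, for Sparc, Dpt, Col25a1 and Col23a1. Each run gives the 250 bases before the gene's start in RefSeq, 5′ to 3′ on the gene's strand. For Col25a1, the authors' deposited table lists 4 starts, and the RefSeq start equals one that lies 49344 bases inside the outermost. For Dpt, the RefSeq start lies 69 bases before the one in the authors' deposited table. Capitals mark matches to 4 motifs, searched on both strands. The TATA box was searched as TATAAA. The CCAAT box was searched by the letters of its name. The GC box was searched as GGGCGG, which reads CCGCCC on the other strand. The AP-1 element was searched as TGANTCA. The Sparc promoter is at chr11:55420081-55420330 on the minus strand, the Dpt promoter at chr1:164796413-164796662 on the plus strand, the Col25a1 promoter at chr3:130180595-130180844 on the plus strand and the Col23a1 promoter at chr11:51289670-51289919 on the plus strand.
Sparc: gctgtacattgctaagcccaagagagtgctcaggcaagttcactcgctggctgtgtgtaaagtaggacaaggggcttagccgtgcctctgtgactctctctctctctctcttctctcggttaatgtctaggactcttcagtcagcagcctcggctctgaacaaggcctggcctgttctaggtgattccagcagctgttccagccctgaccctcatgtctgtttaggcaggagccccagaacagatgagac
Dpt: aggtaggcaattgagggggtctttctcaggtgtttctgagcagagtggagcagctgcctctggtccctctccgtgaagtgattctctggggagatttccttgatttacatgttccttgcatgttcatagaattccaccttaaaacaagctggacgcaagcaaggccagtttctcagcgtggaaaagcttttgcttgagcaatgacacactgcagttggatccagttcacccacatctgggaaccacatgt
Col25a1: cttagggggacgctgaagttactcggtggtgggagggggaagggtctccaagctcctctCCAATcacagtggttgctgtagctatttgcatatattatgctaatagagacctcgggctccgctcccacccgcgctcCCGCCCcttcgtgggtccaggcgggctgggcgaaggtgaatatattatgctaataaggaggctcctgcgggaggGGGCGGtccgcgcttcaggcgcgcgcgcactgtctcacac
Col23a1: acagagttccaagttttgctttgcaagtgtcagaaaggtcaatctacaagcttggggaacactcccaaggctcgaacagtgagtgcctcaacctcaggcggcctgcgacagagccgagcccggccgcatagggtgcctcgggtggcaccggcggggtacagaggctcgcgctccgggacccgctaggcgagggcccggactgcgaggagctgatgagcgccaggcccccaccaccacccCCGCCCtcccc
The promoters of Sparc and Dpt, which rose, held none of the 4 motifs in this window. Those of Col25a1 and Col23a1, which fell, held a GC box, 2 in Col25a1 at 114 and 40 bases before the RefSeq start and 1 in Col23a1 at 11 bases before it. Col25a1 also held a CCAAT box at 191 bases before the start. A GC box was present in 32.7% of 32817 RefSeq promoters of the same length, a CCAAT box in 33.8%, a TATA box in 12.4% and an AP-1 element in 6.75%. GC content was 54.0% for Sparc and 48.8% for Dpt, 60.4% for Col25a1 and 66.0% for Col23a1, against a median of 52.4% over all promoters. No match overlapped another. A match is a run of letters and does not show that a factor binds. Lum and Col14a1, which also rose, had no promoter at hand, and promoters of members that were not called were not searched. Whether these motifs bear on the direction of a gene was not tested.

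The chains of the major fibrils were near their Control levels. Col3a1, the homotrimeric fibrillar collagen of soft tissue, had authors' deposited means of 15.998 in Arid4bSCKO and 15.92 in Control, a difference of 0.07 (95% interval -0.31 to 0.46). The chains of collagen I were at 14.50 and 14.22 for Col1a1 and at 15.64 and 15.67 for Col1a2 (authors' deposited means, Arid4bSCKO before Control). Their differences were 0.28 (-0.47 to 1.03) and -0.03 (-0.49 to 0.43). The interval of Col1a1 is wide and reaches well to both sides of 0. Per kilobase of transcript, the normalized count of Col3a1 was 11762 in Arid4bSCKO and 11168 in Control, that of Col1a2 was 9567 and 9756, and that of Col1a1 was 3910 and 3217.

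Collagen V, which nucleates fibrils and limits their width, was also close to Control in its main chains. Col5a1 differed by 0.06 (95% interval -0.33 to 0.45), Col5a2 by 0.05 (-0.38 to 0.48) and the scarcer Col5a3 by 0.22 (-0.39 to 0.84). Col5a2 lies beside Col3a1 on chromosome 1. Col27a1 differed by 0.21 (-0.43 to 0.84), Col11a1 by 0.08 (-0.40 to 0.56) and Col24a1 by -0.24 (-0.65 to 0.17). The cartilage collagen Col2a1 was low, with authors' deposited means of 5.19 in Arid4bSCKO and 5.94 in Control, and its difference of -0.75 had an interval of -2.33 to 0.83. Col11a2 was at -0.27 (-1.90 to 1.36). Of the 11 fibrillar genes, 0 were called, 0 had an unadjusted p below 0.05, and 7 lay above and 4 below Control.

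Among the 8 fibril-associated collagens, Col14a1 was the member that rose. Collagen XIV binds the surface of collagen I fibrils and limits their fusion. Col14a1 (chromosome 15, 55307750 to 55520803, mm10) had authors' deposited means of 10.81 in Arid4bSCKO and 10.43 in Control, a difference of 0.37 (95% interval 0.16 to 0.59), or 129.6% of Control. In the authors' deposited table the FDR was 0.131, and the moderated limma adjusted p was 0.0177. Col12a1, its closest relative in structure, was at 0.40 (-0.18 to 0.98) and was called only with the length trend taken out (0.57, limma adjusted p = 0.0311). Col16a1, the most abundant of the class, was at 0.15 (-0.24 to 0.55).

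The other fibril-associated chains lay on either side of Control. Col9a2, a collagen IX chain known from cartilage, was at -0.33 (95% interval -0.77 to 0.11) and its partner Col9a1 at -0.19 (-1.03 to 0.65). Col22a1 was at -0.32 (-0.78 to 0.14), Col20a1 at 0.17 (-0.26 to 0.59) and Col19a1 at -0.25 (-3.78 to 3.27). The last of these had authors' deposited means of 2.01 in Arid4bSCKO and 2.26 in Control, where a few reads decide the value. In the class as a whole, 4 genes lay above and 4 below Control.

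Collagen VI, which forms beaded microfilaments around cells, kept its abundant chains close to Control. Col6a1 had authors' deposited means of 14.42 in Arid4bSCKO and 14.50 in Control, and Col6a2 had 14.52 and 14.51. Their differences were -0.08 (95% interval -0.36 to 0.21) and 0.02 (-0.31 to 0.35). The large chain Col6a3 differed by -0.02 (-0.76 to 0.73). The alternative chains Col6a4, Col6a5 and Col6a6 lie in a row on chromosome 9. They were at 0.12 (-0.19 to 0.43), -0.10 (-0.87 to 0.68) and -0.37 (-0.57 to -0.17). Col6a6 had an unadjusted p of 0.00713 in the authors' deposited table but a limma adjusted p of 0.059, outside the threshold.

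The network collagen Col8a2, known from the membrane under the corneal endothelium, was at -0.34 (95% interval -0.63 to -0.05) with a limma adjusted p of 0.0531. With a minimum of 5 normalized counts in place of the level minimum, that value was 0.0493. Its partner Col8a1 was at -0.15 (-1.78 to 1.49). Col7a1, the anchoring fibril collagen, was at -0.26 (-1.05 to 0.52). Col10a1, known from hypertrophic cartilage, was close to the detection limit, with authors' deposited means of 1.05 in Arid4bSCKO and 1.58 in Control. Of the 10 genes of beaded filaments, networks and anchoring fibrils, 2 lay above and 8 below Control, and 0 were called. With the length trend taken out, 5 lay above and 5 below, and the class median was -0.01 in place of -0.12.

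The transmembrane collagens held both genes that fell. Col25a1 (chromosome 3, 130131501 to 130599883) encodes a collagen anchored in the cell membrane whose outer part can be shed, and is known in mice from the innervation of muscle. Its authors' deposited means were 9.34 in Arid4bSCKO and 10.10 in Control, so the difference was -0.75 (95% interval -1.03 to -0.48), or 59.3% of Control. The FDR was 0.0895 in the authors' deposited table and the moderated limma adjusted p was 0.00115. Its adjusted p stayed at 0.00129 with the length trend removed and at 0.0012 with the level trend removed.

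Col23a1 (chromosome 11, 51289920 to 51583925), another transmembrane collagen, had authors' deposited means of 10.66 in Arid4bSCKO and 11.01 in Control. The difference was -0.35 (95% interval -0.58 to -0.12), or 78.5% of Control, with a limma adjusted p of 0.0245. In the authors' deposited table its FDR was 0.145. With the length trend taken out, the difference was -0.22 and the gene was not called (limma adjusted p = 0.124). Col17a1, the collagen of hemidesmosomes, was at -0.34 (-0.65 to -0.03) and was not called (limma adjusted p = 0.148). Col13a1, the collagen of the neuromuscular synapse, was at 0.07 (-0.20 to 0.34). By the deposited ratio of group medians, all 4 lay below Control, Col13a1 at -0.01.

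Of the remaining collagens, Col15a1, found in mice near the basement membranes of muscle and vessels, was at 0.22 (95% interval -0.22 to 0.66). Col26a1, first described from mouse testis and ovary, was well expressed, with authors' deposited means of 11.14 in Arid4bSCKO and 11.03 in Control. Its difference was 0.11 (-0.31 to 0.53). Col28a1 was at -0.66 (-1.99 to 0.67). Over all 36 collagen chains, 1 rose and 2 fell, or 8.33% called against 13.8% of all genes. Of the chains, 16 lay above and 20 below Control, and the median difference was -0.05. By the deposited ratio of group medians, 11 lay above and 25 below Control. With the length trend taken out, 20 lay above and 16 below, the median was 0.08, and 2 were called higher and 1 lower.

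**Figure D2:**
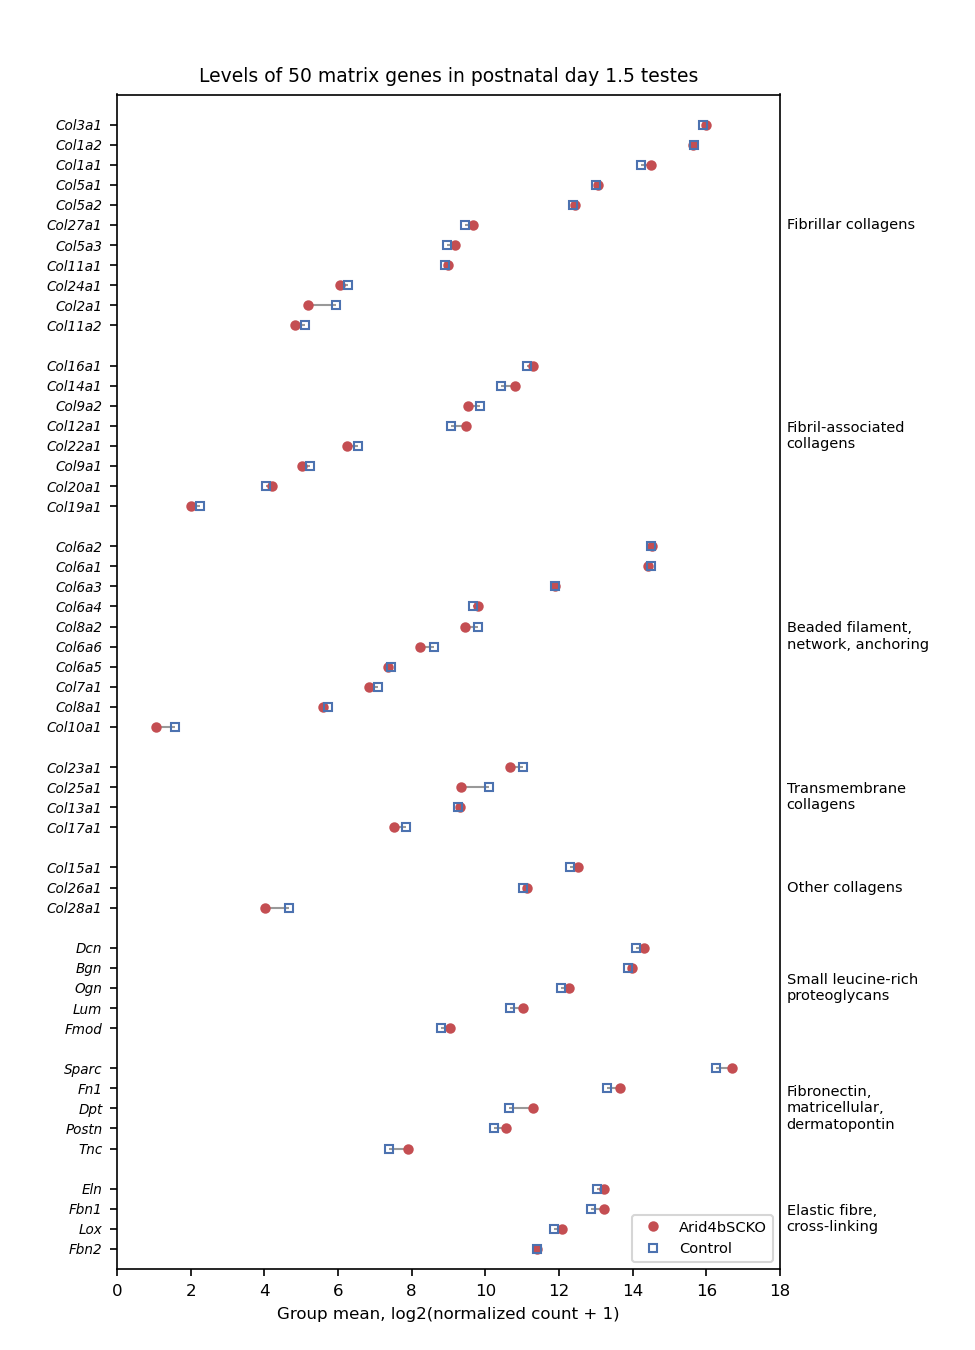
Authors' deposited group means of the 50 matrix genes, as log2(normalized count + 1) on the horizontal axis, grouped by role. Filled red circles are Arid4bSCKO and open blue squares Control, each a mean over 3 pools. The symbols lie closest together for Col1a2, Col6a2, Col6a3 and Fbn2, and the gap is widest among well-expressed genes for Col25a1 and Dpt.

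The small leucine-rich proteoglycans all lay above Control, and lumican was the member that rose. Lum (chromosome 10, 97565501 to 97572703), which binds collagen fibrils and sets their spacing, had authors' deposited means of 11.03 in Arid4bSCKO and 10.66 in Control. The difference was 0.37 (95% interval 0.00049 to 0.74), or 129.4% of Control, and the moderated limma adjusted p was 0.0421, close to the threshold. In the authors' deposited table its FDR was 0.239. Decorin, encoded by Dcn in the same cluster 47339 bases away, was at 14.31 in Arid4bSCKO and 14.10 in Control (authors' deposited means), a difference of 0.20 (-0.24 to 0.64). Bgn, the biglycan gene on the X chromosome, was at 0.11 (-0.40 to 0.61). Ogn, the osteoglycin gene, was at 0.23 (-0.22 to 0.68) and Fmod, the fibromodulin gene, at 0.23 (-0.13 to 0.59). With 5 of 5 differences positive and 1 called, the class median was 0.23.

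Sparc and Dpt rose among the fibronectin, matricellular and dermatopontin genes. SPARC is a glycoprotein that binds collagen as it is secreted and deposited, and Sparc was the most abundant of the 50 genes per kilobase. Sparc (chromosome 11, 55394501 to 55420080) had authors' deposited means of 16.70 in Arid4bSCKO and 16.27 in Control. The difference was 0.43 (95% interval 0.29 to 0.56), or 134.6% of Control, and its FDR of 0.0806 was the lowest of the 50 in the authors' deposited table. Its limma adjusted p was 0.0109, and 0.069 once a trend over level was removed (difference 0.27). The 10 other genes at a level of at least 16 were also all above Control, with a median difference of 0.33. In summed normalized counts, Sparc made up 25.5% of the 50 genes in Arid4bSCKO and 21.3% in Control.

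Dermatopontin, the product of Dpt (chromosome 1, 164796732 to 164824266), binds decorin and promotes collagen fibril assembly. Dpt had authors' deposited means of 11.29 in Arid4bSCKO and 10.63 in Control. The difference of 0.65 (95% interval 0.32 to 0.99), or 157.4% of Control, was the largest rise among the 50. In the authors' deposited table its FDR was 0.116, and its limma adjusted p was 0.00247. Dpt and Col25a1 were the called members that differed by at least 1.5-fold, where the same rule took 6.29% of all genes, 3.69% higher and 2.6% lower.

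Fn1, the fibronectin gene, had authors' deposited means of 13.66 in Arid4bSCKO and 13.30 in Control, a difference of 0.36 (95% interval -0.26 to 0.98). Postn, the periostin gene, was at 0.32 (-0.46 to 1.11). Tnc, the tenascin C gene, was at 0.50 (-0.87 to 1.86), but the deposited ratio of group medians was 0.09, so the mean and the median differ here. These 3 were not called. All 5 genes of the class lay above Control, with a median difference of 0.43.

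The elastic fibre genes were not called. Eln, the elastin gene, was at 0.18 (95% interval -0.39 to 0.74). Fbn1, the main fibrillin of microfibrils, had authors' deposited means of 13.21 in Arid4bSCKO and 12.88 in Control and a difference of 0.34 (-0.23 to 0.91). It was called once the length trend was removed (0.51, limma adjusted p = 0.0443). The fetal fibrillin Fbn2 was at 0.01 (-0.56 to 0.57), the smallest difference of the 50. Lox, the lysyl oxidase that starts the cross-linking of collagen and elastin, was at 0.24 (-0.25 to 0.72). Over the 14 genes outside the collagens, 14 lay above Control, 3 rose and 0 fell, with a median of 0.28. Of all genes tested, 45.8% lay above Control. The share called was 21.4% of the 14, against 13.8% of all genes. The deposited ratio of medians put 13 of the 14 above Control, Fbn2 being the exception at -0.07.

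**Figure D3:**
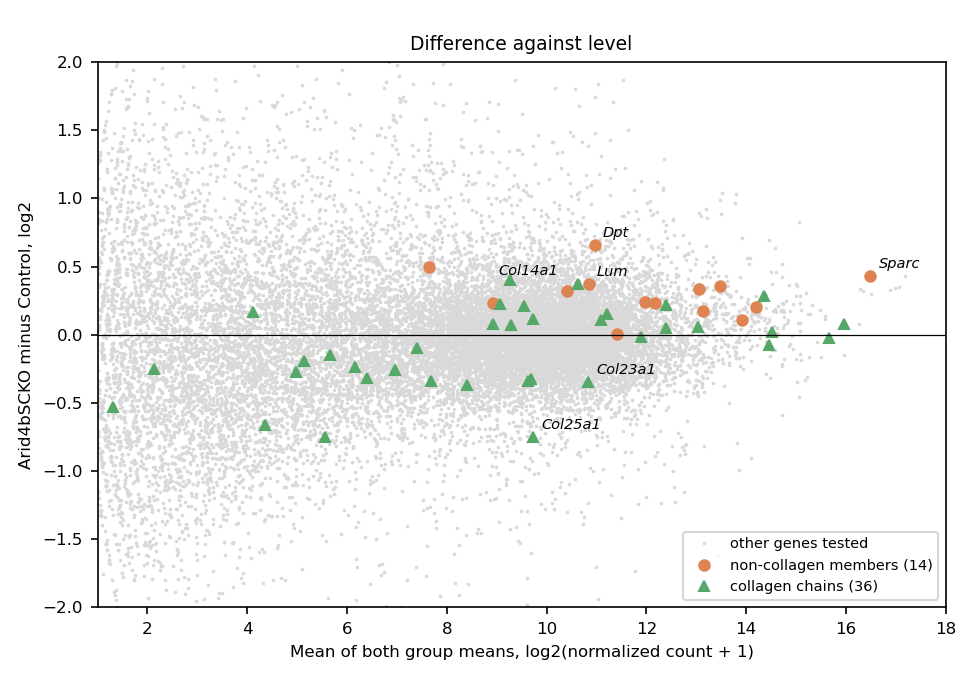
Difference (Arid4bSCKO minus Control, log2, vertical axis) against the mean of both group means (log2 of normalized count + 1, horizontal axis). Orange circles are the 14 genes outside the collagens, all above 0, green triangles the 36 collagen chains, on both sides of 0, and grey dots the other genes tested, of which 200 lie beyond the vertical axis. The 6 called genes are named.

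Members with a higher level more often lay above Control. Among the 25 members with the higher mean level over both groups, 21 lay above Control, with a median of 0.18, and 4 rose and 1 fell. Among the 25 with the lower mean level, 9 lay above Control, with a median of -0.24, and 0 rose and 1 fell. Level and kind of gene overlap here: of the genes outside the collagens, all above Control, only Fmod and Tnc were among the lower 25. With the level trend removed, 19 of the higher and 9 of the lower 25 lay above Control, and the medians were 0.13 and -0.08. Taking out the length trend instead gave 24 and 10 above Control and medians of 0.26 and -0.10. Across the 50 genes, the rank correlation of difference with level was 0.46, and that with transcript length was -0.05, points that share the same 6 libraries. Over all genes tested, longer transcripts tended to be lower in Arid4bSCKO (rank correlation -0.21), and matrix transcripts are long, with a median of 5189 bases against 2712. With that trend removed, 34 of the 50 genes lay above Control, 6 were called higher and 1 lower, against 8.52% and 4.45% of all genes, and the median was 0.18. The added calls were Col12a1 and Fbn1, and Col23a1 was no longer called.

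Genes that fold, trim and secrete procollagen were looked up next, because they act on the chains above. Of 27 genes of collagen synthesis and processing, 6 rose and 1 fell, or 25.9% called against 13.8% of all genes, with a median difference of 0.14. Serpinh1, which encodes the collagen chaperone HSP47, was at 0.52 (95% interval 0.32 to 0.72). P4hb, the shared subunit of the prolyl 4-hydroxylases, was at 0.42 (0.25 to 0.59) and Lepre1, prolyl 3-hydroxylase 1, at 0.49 (0.22 to 0.75). Fkbp14, a prolyl isomerase of the endoplasmic reticulum, was at 0.49 (0.30 to 0.68). Adamts14, which trims the amino-terminal propeptide, was at 0.84 (0.63 to 1.04). Its more abundant relative Adamts2 was at -0.25 (-0.45 to -0.05) and Adamts3 at -0.54 (-1.37 to 0.29), and neither was called. Kdelr2, the receptor that returns chaperones such as HSP47 to the endoplasmic reticulum, was at 0.58 (0.48 to 0.68) and passed the FDR of the authors' deposited table at 0.0386. Several of these proteins also serve clients other than collagen.

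The gene that fell was P4ha3, a scarce catalytic subunit of prolyl 4-hydroxylase, at -0.93 (95% interval -1.54 to -0.32). The main catalytic subunits P4ha1 and P4ha2 were at 0.14 (-0.19 to 0.46) and 0.16 (-0.23 to 0.56). Pcolce, the enhancer of procollagen C-proteinase, was at -0.23 (-0.43 to -0.03) and was not called.

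Among 19 further genes of cross-linking and elastic fibres, 8 rose and 0 fell, or 42.1% called against 13.8% of all genes, with a median of 0.20. Loxl2 and Loxl1, relatives of Lox, were at 0.58 (95% interval 0.17 to 0.99) and 0.41 (0.03 to 0.79). Tgm2, the tissue transglutaminase, was at 0.90 (0.42 to 1.38) and Fbln2, a fibulin of elastic fibres, at 0.49 (0.16 to 0.82). Ltbp1, which holds latent TGF-beta in the matrix, was at 1.84 (0.85 to 2.83), and its relative Ltbp2 at 1.87 (0.88 to 2.85). The microfibril genes Mfap5 and Emilin2 were at 0.71 (0.30 to 1.12) and 0.54 (0.08 to 1.00).

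Of 26 other small leucine-rich and matricellular genes, 4 rose and 0 fell, with a median of 0.20. The share called, 15.4%, was close to the 13.8% of all genes. The genes that rose were the proteoglycan gene Prelp at 1.45 (95% interval 0.43 to 2.48) and the matricellular genes Cyr61 at 2.51 (1.21 to 3.82), Ctgf at 1.50 (0.44 to 2.57) and Thbs1 at 1.17 (0.15 to 2.20). Thbs2, with the next smallest p after Cyr61, was at -0.15 (-0.23 to -0.07) and was not called. Of 16 matrix receptor genes, 3 rose and 1 fell, or 25.0%, with a median of 0.18. The receptors that rose were Sdc4 at 0.87 (0.62 to 1.12), the collagen receptor tyrosine kinase Ddr1 at 0.42 (0.24 to 0.61) and the hyaluronan receptor Cd44 at 1.42 (0.65 to 2.18). The collagen-binding integrin gene Itga11 was at -0.42 (-0.66 to -0.19), and it was not called once the length or the level trend was removed (limma adjusted p = 0.137 and 0.0611). Over the 4 lists, 23 of 88 genes were called, 21 higher and 2 lower. In the plain limma fit with neither variance trend nor robust weights, 3 were, namely Kdelr2, Adamts14 and Sdc4 (limma adjusted p = 0.0452, 0.0361 and 0.0423).

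**Figure D4:**
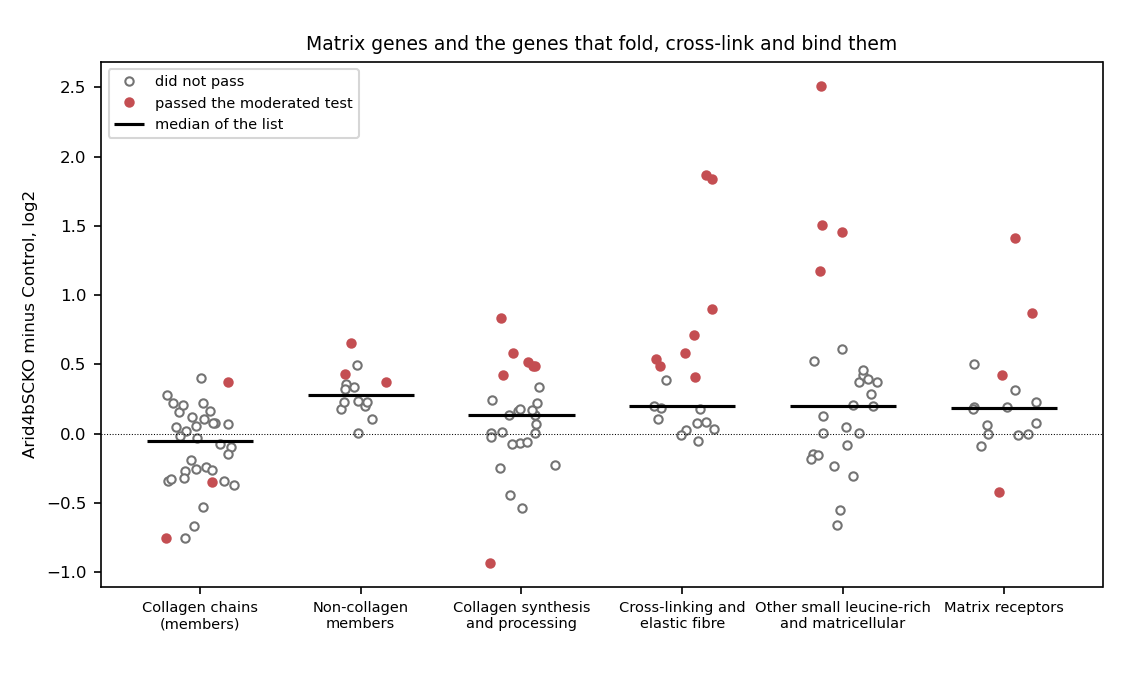
Differences (Arid4bSCKO minus Control, log2, vertical axis) of the collagen chains, the other matrix genes described here and 4 lists of related genes, 1 point per gene. Filled red points passed the moderated limma test and black bars are medians. Medians were -0.05 for the collagen chains and 0.28 for the other matrix genes, and from 0.14 to 0.20 for the 4 related lists.

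Markers of several cell types moved in the same comparison, and their part in these results was not tested. Of 56 marker genes tested, 20 were called, where the same test called 13.8% of all genes. In the plain limma fit with neither variance trend nor robust weights, which called 1.24% of all genes, 3 were. These were C1qa of the macrophage list, Tagln and Acan. Nr2f2 and the Sertoli gene Gata4 were no longer called once the length trend was taken out (limma adjusted p = 0.0585 and 0.089). All 8 macrophage genes in the table rose, with summed normalized counts of 6116 in Arid4bSCKO and 2633 in Control. Of 8 Sertoli genes 5 fell and 1 rose, with sums of 37549 and 68635. Of 8 genes listed as fibroblast or stromal, 2 fell, Ptch1 at -0.89 (95% interval -1.49 to -0.28) and Nr2f2 at -0.38 (-0.72 to -0.03). The list had sums of 32514 and 39825, but it is not particular to stroma, since it includes Wt1, which Sertoli cells also express. Pdgfra, the receptor gene that marks interstitial fibroblasts, was at -0.25 (-0.63 to 0.13). Of 6 peritubular myoid and smooth muscle genes 1 rose, Tagln at 0.67 (0.51 to 0.83), with sums of 26089 and 21529.

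Among the other marker lists, 1 of 6 endothelial genes, Robo4, rose, while the other 5 lay below Control without being called, and the list median was -0.20. Of 5 germ cell genes, 4 lay below Control and 1 of these, Dppa4, fell. Sums were 7012 and 7890 for the endothelial and 5967 and 8022 for the germ cell genes (Arid4bSCKO before Control). Of 5 Leydig genes 0 were called, with sums of 42469 and 43532. Of 7 cartilage and bone genes tested, Acan, the aggrecan gene, fell at -1.08 (95% interval -1.51 to -0.65), and the summed counts of the list were 865 and 957. Of 3 keratinocyte genes 0 were called, with sums of 234 and 195. No marker looked up was at 0 in either group.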

How the data were processed

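Per the labels' protocols, stranded poly(A) libraries were made from DNase-treated RNA and sequenced as paired 50-base reads. The submitters' processing notes name STAR 2.4 and mm10. How reads were counted (tool, strand, annotation) and normalized is not given in the sources used here. Reads of a gene and an antisense partner may therefore not be separated. The authors deposited 1 table of log2 group means, a log2 ratio of medians, a p-value that assumes equal variances, unadjusted, and its FDR, per the file headers and column descriptions. Recomputing the FDR from the deposited p-values over all 22320 genes matched it to a relative difference of 4.78e-05.

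Each difference's standard error was recovered from its p-value, using 4 residual degrees of freedom. The main call was the deposited FDR below 0.05. As a second call, the implied variances of the 19095 genes with a mean log2 level of at least 1 were shrunk with limma 3.58.1 in R 4.3.3 (trend on level, robust, median prior degrees of freedom 7.46). Benjamini-Hochberg adjustment ran over all of them. In 529 rows a filled-in value was read, and these were left out of it. All 50 members passed the level minimum.

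Transcript lengths came from GENCODE M21 (GRCm38), for 18205 genes by RefSeq accession and 1710 by symbol, with none for 2405. Deposited gene starts count from 0 and are given from 1. The steps behind the depth came from 482 genes in Arid4bSCKO and 648 in Control that were read in a single library. A log2(normalized count + 1) scale understates changes of genes with few reads. Since no label gives the litters behind the pools, p-values cover only the spread among these pools, which may be technical.

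The members, lists and tests were chosen with earlier results of these data known. Described most fully were the called members and, in each role, the most abundant and those with the smallest deposited p-values, with the other members given by their differences. Genes named from the related lists were the called genes and those with the smallest p-values. The comparator genes P4ha1, P4ha2, Adamts2, Adamts3, Pcolce and Pdgfra were picked after their values were seen.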

Additional observations from a re-analysis of the deposited data

How the results depend on the processing

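No paired analysis was possible because the table holds group means and no value per pool, and leaving out a replicate was not run for the same reason. Readjusting the deposited p-values over genes at a level of at least 1, or with at least 5 normalized counts, left 0 members called, while 9 had an unadjusted p below 0.05, 4 higher and 5 lower. The moderated limma test called 6 members without a filter on level, 7 with the count minimum, 5 with the level trend removed, 7 with the length trend removed and 6 after centring on the median of all genes. Without the trend of the spread and robust fitting it called 0 members, 0 higher and 0 lower, and requiring 1.5-fold left 2, 1 higher and 1 lower. With the length trend removed, 1 member was called lower. Of the 88 related genes tested, 23 were called, 21 higher and 2 lower. Without the trend and robust fitting 3 were called, 3 higher and 0 lower, and with 1.5-fold 12, 11 higher and 1 lower. The related genes called lower numbered 1 without the filter, with the level or length trend removed, and after centring on the median. The direction of 6 members turned, each with a 95% interval that spans 0. With the length trend removed, Col1a2 was at 0.0923, Col6a1 at 0.016, Col6a3 at 0.15 and Col6a5 at 0.0676. After centring, Col1a2 was at 0.0068 and Col6a3 at 0.019. With the level trend removed, Col3a1 was at -0.0623 and Col6a2 at -0.0675. The other 44 kept their direction with a trend removed and after centring. In the deposited ratio of medians, Col6a2, Col5a1, Col5a2, Col11a1, Col13a1 and Fbn2 lay below Control. The cause of these changes was not tested. Low genes such as Col10a1 and Col19a1 are limited by depth.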

Other observations

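Of the collagens left out by the rule, Col4a1 to Col4a6, Col18a1 and Col9a3, 0 of 8 were called and 0 had an unadjusted p below 0.05 in the authors' deposited table. Their differences ran from -0.23 for Col9a3 to 0.24 for Col4a3, with a median of 0.04, or 0.20 with the length trend removed. Col18a1, the multiplexin of basement membranes, was at -0.04 (95% interval -0.16 to 0.07).

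Ratios between partner chains, per kilobase of transcript, differed little between the groups for collagens V and VI. Col6a1 over Col6a2 was 0.898 in Arid4bSCKO and 0.959 in Control, and Col5a1 over Col5a2 was 1.22 and 1.22. Col1a1 over Col1a2 was 0.409 in Arid4bSCKO and 0.33 in Control, and the collagen I protein is known to hold more of the Col1a1 chain. Col6a1 stood 13.6 times as high as Col6a3 in Arid4bSCKO and 14.2 times in Control. For collagen IX, Col9a2 over Col9a1 was 30.3 in Arid4bSCKO and 33.2 in Control. These ratios rest on annotated transcript lengths and carry no test.

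The deposited ratio of medians and the difference of means were within 0.1 log2 units for 34 of the 50 genes and more than 0.3 apart for 4, and their signs differed for 6. Together the 50 genes made up 1.77% of summed normalized counts in Arid4bSCKO and 1.63% in Control.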
